A study of Drosophila melanogaster with 11 samples.

Results

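Glycolysis splits glucose into pyruvate in the cytosol and yields ATP and NADH on the way. Hexokinase and phosphofructokinase commit sugar to the pathway, and aldolase divides it into 3-carbon units. Triose phosphate isomerase interconverts those units, and the remaining enzymes oxidise them and recover ATP. In flies as in mammals the enzymes are soluble and abundant in growing cells, and phosphofructokinase is a classical control point. The genes described here are 10 enzyme genes of this route, taken by name in pathway order: Hex-A, Pfk, Ald, Tpi, Gapdh1, Gapdh2, Pgk, Pglym78, Eno and PyK. All 10 were found among the 16509 gene symbols in the RNA-seq files, and all 10 passed the filter on low values.

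The cells were S2, a hemocyte-like Drosophila line kept in serum-free medium with added glutamine. RNA-seq of polyA RNA covered 2 libraries of dTet control cells and 2 of cells with dTet knocked down; dTet is the fly gene of the Tet dioxygenase. RNA hydroxymethylcytosine was mapped by hMeRIP-seq, which sequences total RNA pulled down with an antibody to that base, in 1 sample of cells with a CRISPR edit at yellow and 1 with an edit at dTet. The labels give neither the knockdown reagent nor whether an edited line was 1 clone, and they leave unsaid if RNA-seq replicates came from different cultures. The p-values therefore measure only the spread between these libraries, which may be technical.

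RNA level is given as signal, whose meaning was inferred from the values and is not stated by the submitters. It was read as the mean number of reads in a 40-bp bin of exon multiplied by 1 factor per library, a level per length. A single read per bin then corresponds to 0.340 (control 1), 0.390 (control 2), 0.372 (knockdown 1) and 0.476 signal (knockdown 2). If the factors scale the libraries to a common depth, control 1 was the deepest and knockdown 2 the shallowest. Of 12 hemocyte markers, 11 had a mean control signal of 1 or more, and their summed signal was 285 to 297 in the controls and 241 to 260 in the knockdown libraries. Muscle markers summed to at most 0.262, with Mhc, up and Tm2 at 0 throughout. Neuron and glia markers summed to 2.07 to 2.52 in the controls and 2.48 to 2.61 in the knockdown libraries. Among them nSyb and Syt1 were at 0 and only elav was detected. Germline markers summed to 2.93 to 2.95 in the controls and 2.52 to 2.72 in the knockdown libraries. There nos and bam were at 0 and only aub was detected. Of 6 fat body markers, Fbp1, Fbp2, Yp1 and Yp2 were at 0 and only CG3523, a fatty acid synthase gene, was detected. The fat body list summed to 12.6 to 16.0 in the controls and 16.7 to 18.0 in the knockdown libraries. The targeted gene dTet, listed as CG43444, stood at 6.93 and 8.01 signal in the controls, against 4.88 and 6.60 after knockdown. The log2 change of dTet, -0.34 (SE 0.21), missed the threshold (limma, adjusted p = 0.9995), so the libraries are called knockdown here by their label.

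The first question was how high the polyA RNA level of each enzyme gene was in control cells. The glyceraldehyde phosphate dehydrogenase genes stood at the top and the phosphofructokinase gene at the bottom, 13.5-fold apart in mean control signal. Gapdh2 had 22.4 ± 0.629 signal, Gapdh1 15.9 ± 3.52, Hex-A 12.1 ± 0.443 and PyK 11.9 ± 0.419 (SD, n = 2 each). Eno followed at 9.67 ± 1.42, and Ald, Tpi, Pglym78 and Pgk lay close together at 6.34 ± 1.61, 6.03 ± 1.49, 5.49 ± 0.789 and 5.13 ± 2.76. Pfk had 1.66 ± 0.330. All but Pfk were above the median of 2.99 of the 6086 genes detected in the controls, where detected means a mean control signal of 1 or more. Gapdh2 exceeded 95.3% of those genes and Pfk 20.3%.

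Within a library the order was steady: 7 of the 9 neighbouring pairs kept it in all 4 libraries. The exceptions were Hex-A and PyK, in order in 2 libraries, and Pglym78 and Pgk, in order in 1. The spread between libraries was wider than several of the steps. The control libraries of Gapdh2 and Gapdh1, of Gapdh1 and Hex-A, of PyK and Eno, of Eno and Ald and of Pgk and Pfk did not overlap. Those of Hex-A and PyK overlapped, as did each step from Ald through Tpi and Pglym78 to Pgk, so that the levels of 4 of the 9 neighbouring pairs overlapped between the control libraries, although Ald lay above Tpi and Tpi above Pglym78 in each library. Over all 4 libraries Eno and Ald overlapped as well. The order also depended on averaging over all listed exons. With the longest exon alone, Eno had a mean control signal of 17.9, above the 15.9 of Gapdh1. Tpi then had 3.79, below Pgk at 6.50 and Pglym78 at 7.50. Gapdh2 stayed highest, at 24.3, and Pfk lowest, at 2.86.

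**Figure D1:**
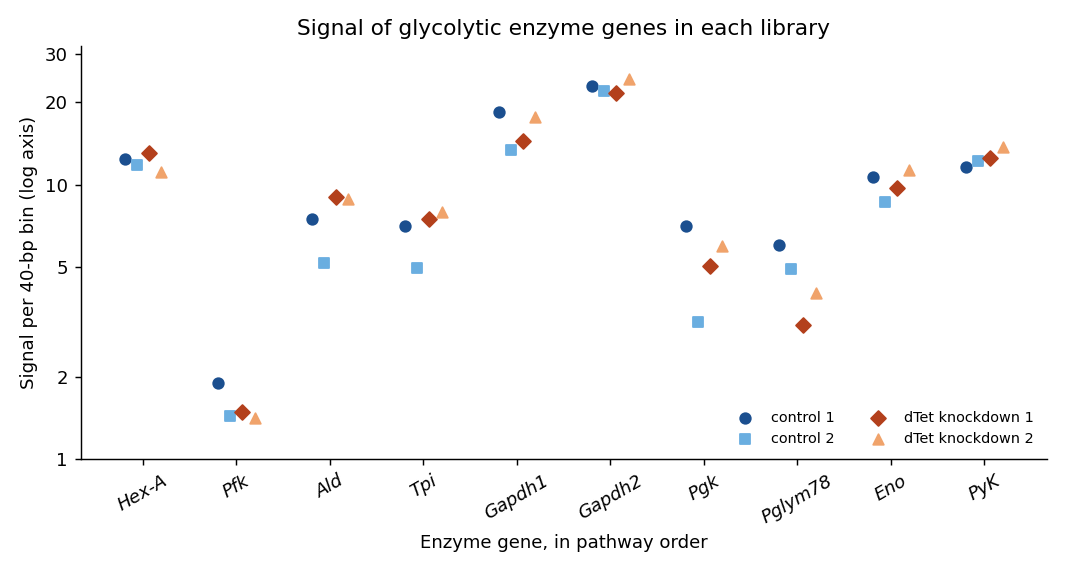
Signal per 40-bp bin on a log axis for the 10 enzyme genes in pathway order, 1 point per library. Pfk lies lowest in every library, at 1.41 to 1.90, and Gapdh2 highest, at 21.6 to 24.2.

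Hex-A encodes a hexokinase, which phosphorylates glucose on entry. It is listed on X from 9479707 to 9483845 (dm3) as 1 stretch of exon with 104 bins. Its signal was 12.4 and 11.8 in the controls, against 13.1 and 11.2 after knockdown. The knockdown libraries lay on either side of the controls. The log2 change was 0.0024, with a 95% interval from -0.42 to 0.42. Pfk encodes phosphofructokinase and lies on 2R from 5997244 to 6004961 in 13 exons of 111 bins. It stood at 1.90 and 1.43 in the controls and at 1.48 and 1.41 after knockdown, so control 1 alone was high. Its log2 change was -0.12 (95% interval -0.66 to 0.43). Most of its exons were nearly empty: the last 2 in genome order had a mean of 2.04 and 4.36 signal over the 4 libraries, and each of the other 11 had 1.12 or less.

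Ald encodes fructose bisphosphate aldolase (3R, 22079790 to 22087312), which cleaves the 6-carbon sugar. It had 7.48 and 5.20 signal in the controls, against 8.99 and 8.88 after knockdown. Both knockdown libraries lay above both controls, and they lay closer to each other than the controls did. The log2 change was 0.45 (SE 0.21, 95% interval -0.033 to 0.94; limma, unadjusted p = 0.0639). It was 0.23 without control 2, 0.68 without control 1 and 0.22 when the longest exon alone stood for the gene. Tpi encodes triose phosphate isomerase, which interconverts the products of aldolase (3R, 25958702 to 25960320). It stood at 7.08 and 4.98 in the controls and at 7.47 and 7.92 after knockdown. Here too the knockdown libraries lay above the controls, with control 2 far below the other libraries. The log2 change was 0.32 (95% interval -0.16 to 0.81), and it was 0.10 without control 2, 0.54 without control 1 and 0.67 with the longest exon alone.

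Gapdh1 (2R, 3679405 to 3680884) and Gapdh2 (X, 15762177 to 15763693) encode similar glyceraldehyde phosphate dehydrogenases, the enzyme that makes NADH in the pathway. How reads that fit both copies were placed is not given in the sources used here, so the division between them is uncertain. Gapdh1 had 18.4 and 13.4 signal in the controls, against 14.5 and 17.7 after knockdown. Gapdh2 had 22.9 and 22.0 in the controls, against 21.6 and 24.2 after knockdown. The ranges of the groups overlapped for both genes, and their log2 changes were 0.023 (95% interval -0.46 to 0.50) and 0.030 (-0.36 to 0.42). The ratio of Gapdh1 to Gapdh2 was 0.804 and 0.610 in the controls, against 0.668 and 0.729 after knockdown. Their summed signal was 41.2 in control 1 and 41.9 in knockdown 2, against 35.4 in control 2 and 36.1 in knockdown 1.

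Pgk encodes phosphoglycerate kinase, the first step that recovers ATP (2L, 2746879 to 2753067). It stood at 7.08 and 3.17 in the controls and at 5.07 and 5.96 after knockdown. The knockdown libraries lay between the controls, which differed 2.23-fold, the widest gap of the 10 genes. The log2 change was 0.16 (95% interval -0.53 to 0.85), and its sign followed the control used: 0.64 without control 1 and -0.31 without control 2. Pglym78 encodes phosphoglycerate mutase (3R, 24973969 to 24975622). It had 6.05 and 4.93 signal in the controls, against 3.08 and 4.02 after knockdown, and it was the only one of the 10 whose knockdown libraries both lay below both controls. The log2 change was -0.52 (SE 0.21, 95% interval -1.0 to -0.027; limma, unadjusted p = 0.0410). Of its 30 bins, 9 lie in an exon that overlaps ligatin. Without that exon the log2 change was -0.32 (limma, unadjusted p = 0.206), and the knockdown libraries no longer both lay below both controls.

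Eno encodes enolase (2L, 1724767 to 1729635) and had 10.7 and 8.66 signal in the controls, against 9.75 and 11.4 after knockdown. PyK encodes pyruvate kinase, the last step (3R, 18193257 to 18198467), and had 11.6 and 12.2 in the controls, against 12.5 and 13.7 after knockdown. For Eno the groups overlapped, and for PyK the knockdown libraries lay just above the controls. The log2 changes were 0.12 (95% interval -0.33 to 0.56) and 0.13 (95% interval -0.27 to 0.53).

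**Figure D2:**
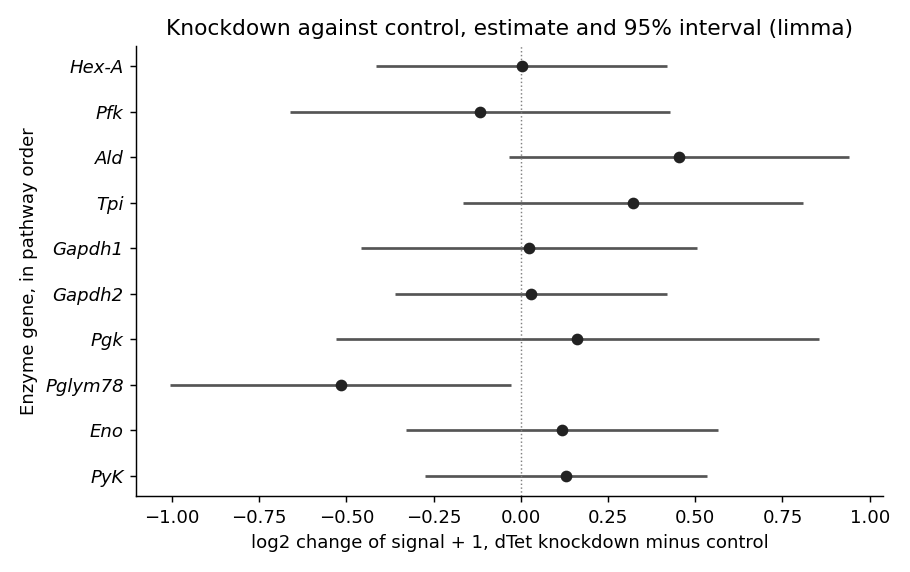
Log2 change of signal + 1, dTet knockdown minus control, for each enzyme gene, with the limma estimate as a point and its 95% interval as a bar (2 libraries a group). The interval of Pglym78, from -1.0 to -0.027, lies below 0 before adjustment, and the other 9 include 0.

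The main comparison asked whether transcripts of these enzymes stood at other levels in the knockdown than in the control libraries. None of the 10 genes passed, and each had an adjusted p of 0.9995 (limma, Benjamini-Hochberg over all 6050 genes tested). Over all genes 0% passed, and 4.05% had an unadjusted p under 0.05, against 1 of the 10 enzyme genes, Pglym78. In log2 change, 8 were higher and 2 lower, where 45.3% of all tested genes were higher, and the median was 0.07 beside -0.03 over all tested genes. Both knockdown libraries lay above both controls for 3 of the 10 (Ald, Tpi and PyK), where 13.2% of all tested genes did. Both lay below for 1 of the 10, where 17.4% of all tested genes did. The median depended on which libraries were kept: it was 0.17 with 9 of 10 higher without control 1, and -0.03 with 4 of 10 higher without control 2. Without knockdown 1 it was 0.17 and without knockdown 2 it was 0.04. Since these are bulk RNA samples, a smaller share of cells that express a gene and less RNA per cell cannot be told apart.

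The libraries were then compared one by one, to see whether the enzyme genes moved together. Among the comparisons within each group and between the group means, the largest common shift was between the control libraries. Single knockdown and single control libraries were not set against each other. Control 1 was above control 2 for 9 of the 10 genes, all but PyK, where 54.1% of all tested genes were, and the median difference in log2(signal + 1) was 0.26 beside 0.04 over all tested genes. Control 2 held the lowest value for 5 of the 10, namely Ald, Tpi, Gapdh1, Pgk and Eno, where it did so for 22.8% of all tested genes, and it held the highest value for 0. The 10 genes together took 0.261% and 0.223% of all exonic signal in controls 1 and 2 and 0.256% and 0.266% in knockdown libraries 1 and 2. The difference between the controls exceeded the difference between the group means for 7 of the 10 genes, which is near the 64.9% of all tested genes. Control 2 was the lowest library for 5 genes when each library was divided by its median or the longest exon alone was used, and for 6 after quantile normalization. These counts describe 4 libraries and were not tested.

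The shift was unequal within the pathway. Relative to its own mean over the libraries, control 2 lay lowest for Pgk, at -0.56 in log2(signal + 1), Ald at -0.45 and Tpi at -0.38. For Hex-A, Gapdh2 and PyK it lay within 0.05 of the mean, at -0.036, -0.043 and -0.032. Pglym78 went another way: it was above its mean in both controls, at 0.38 and 0.13, and lowest in knockdown 1, at -0.41. Knockdown 2 was above the mean for 7 of the 10 and knockdown 1 for 4.

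**Figure D3:**
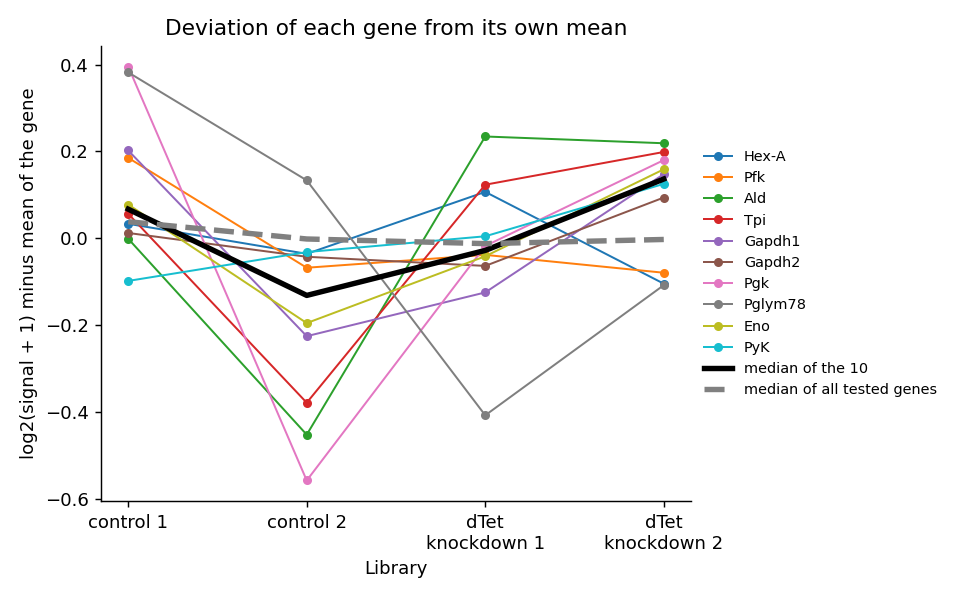
Log2(signal + 1) minus the mean of the gene over 4 libraries, for each enzyme gene; lines join the values of 1 gene and carry no order of libraries. The median of the 10 (black) is -0.13 in control 2 and 0.14 in knockdown 2, while the median of all tested genes (dashed) stays between -0.012 and 0.038.

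Signal was then followed along the exons, because the libraries differed in how evenly they covered a gene. Each gene with 2 or more exons was divided into 2 parts near the middle of its exonic length, keeping every exon whole. Genes whose exons all fell on the same side were left out. The parts could be of unequal length, as in Gapdh2, with 3 and 34 bins. Steepness was the log2 ratio of signal + 1 between the parts, taken towards the part that was higher over the 4 libraries. Its median over 5252 genes was 0.99 in control 1, while control 2 had 0.64, knockdown 1 0.66 and knockdown 2 0.62. Among the 8 enzyme genes with 2 or more exons it was 1.70, 1.02, 0.86 and 1.36. Control 1 was the steepest library for 5 of those 8, where it was so for 50.1% of all genes. Its part in the difference between the controls was not tested.

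In Eno and PyK nearly all signal lay at one end. The first exon of Eno in genome order (1724767 to 1726654) had 19.9 and 15.8 signal in the controls, against 18.1 and 20.7 after knockdown. Its other 4 exons, each read from the longest exon listed there, had 0.857 or less on average. A shorter exon listed at exon 2, from 1727645 to 1727879, had 2.27 and 1.95 in the controls, against 1.98 and 4.45 after knockdown. The last 3 exons of PyK had 11.7 to 16.6 on average, while exon 2 was at 0 in every library. These ends are given by coordinate, since the files hold no strand.

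The exons of a gene differed in how far the libraries lay apart. In Ald, exon 5 (22082946 to 22084000) had 9.51 and 8.65 signal in the controls, against 15.3 and 16.6 after knockdown, a log2 change of 0.75. In the same gene, exon 1 (22079790 to 22081152) had 10.8 and 6.21 against 10.5 and 9.11, a log2 change of 0.22. Exons 2 and 4 had log2 changes of 0.50 and 0.61 at lower signal. In exon 5 both knockdown libraries lay above both controls, and in exon 1 control 2 alone was low. Tpi showed the like: its second exon had 4.01 and 3.57 in the controls, against 5.53 and 7.86 after knockdown, and its first had 12.2 and 7.32 against 10.7 and 8.02. In Pgk the gap between the controls sat in the first 2 exons in genome order, at 12.5 against 5.00 and 9.40 against 3.60, while exon 3 had 2.78 and 2.57. Exon 1 of Pgk overlaps Cwc25, whose own signal was 2.29 in control 1 and 2.78 in control 2. In Pglym78 the exon shared with ligatin had 7.25 and 5.16 in the controls, against 2.94 and 2.01 after knockdown, a log2 change of -1.05. The ligatin gene itself stood at 1.97 and 1.89 in the controls, against 2.23 and 2.07 after knockdown. Exon 2, which is not shared, had 8.42 and 6.58 against 4.81 and 6.52, a log2 change of -0.35. Of the 27 enzyme exons tested none passed (limma, adjusted p = 0.999 for each), and over all 23023 exons tested 0% passed. An unadjusted p under 0.05 (limma) was found for 911 of the 23023 exons. Of the 27 enzyme exons it was found for 2, exon 5 of Ald and exon 3 of Pglym78.

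**Figure D4:**
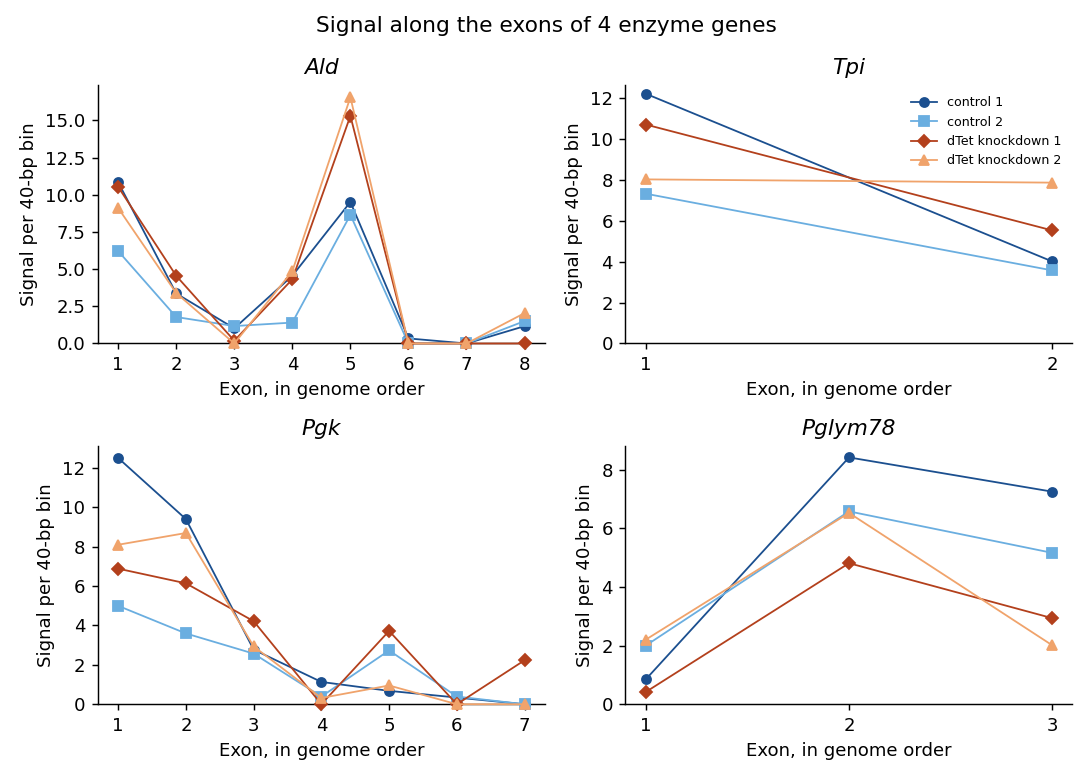
Signal per 40-bp bin in each exon, in genome order, for Ald, Tpi, Pgk and Pglym78, 1 line per library. Exon 5 of Ald is at 15.3 and 16.6 in the knockdown libraries and below 10 in the controls, and control 1 stands above the other libraries in exon 1 of Pgk, at 12.5.

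The hMeRIP lists showed where RNA hydroxymethylcytosine was called in these genes. In each edited line there was 1 sample, so the lists describe those samples and no test between them was possible. Of the 10 genes, 1 had a peak in the yellow list, Hex-A, and 0 had a peak in the dTet list. Among detected genes 5.59% had a yellow-list peak in an exon and 7.74% a dTet-list peak. Among the 4566 detected genes whose control signal lay within the range of the 10 enzyme genes, 5.98% had a yellow-list peak, so 1 of 10 is near the background.

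Hex-A carried 2 peaks, at 9479940 to 9480558 (619 bp) and 9482534 to 9483159 (626 bp) on X. Their widths were near the median of 544 bp of the 479 yellow-list peaks on chromosome arms. The files list a long and a short exon for Hex-A, the short one from 9479922 to 9482433. The first peak began 233 bp from the low-coordinate end of the gene and lay in both exons. The second began 2827 bp from that end and touched the long exon only. The short exon had 14.6 and 15.2 signal in the controls, above the 12.4 and 11.8 of the long one, so the stretch of the long exon outside the short one, where the second peak lies, was on average less covered. The nearest dTet-list peak was 80.1 kb away, in nej. Among detected genes with a yellow-list peak, 16.8% had no dTet-list peak. Among the 43 with 2 or more yellow-list peaks it was 4.65%, which is 2 genes, Hex-A and CG32767. The cutoff of 2 equals the count in Hex-A itself, so this share is a description only. CG32767 was named after its values were seen. Hex-A peaks fell away when only peaks of at least the median width of the whole list were kept, 704 bp.

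**Figure D5:**
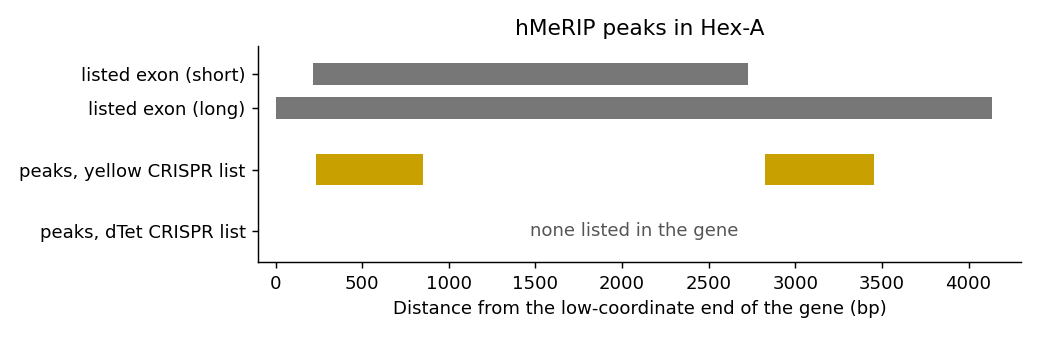
Peaks of the yellow and dTet lists along Hex-A, with the long and the short exon listed for the gene; the axis is the distance in bp from the low-coordinate end. The yellow-list peaks begin at 233 and 2827 bp, and the dTet list has none in the gene.

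The genes around the pathway were described from 7 further lists with 79 genes, of which 55 were tested and 0 passed (limma, smallest adjusted p = 0.9995), with 27 higher and 28 lower (45.3% of all tested genes were higher) and a median log2 change of -0.0016. An unadjusted p under 0.05 (limma) was found for 2 of the 55, Rpi and Mdh2, where 4.05% of all tested genes had one. Control 1 was above control 2 for 42 of the 55 (76.4%), where 54.1% of all tested genes were. Control 2 was lowest for 23 (41.8%), where it was so for 22.8% of all tested genes. Outside the 10 enzymes, too, control 1 was above control 2 more often than over all tested genes. The counts varied between the lists. Control 1 was above control 2 for 7 of 7 genes of sugar uptake and stores and 13 of 18 of the citric acid cycle. It was so for 10 of 12 genes of the pyruvate, lactate and glycerol phosphate branches. Among pentose phosphate genes and among regulators it was 5 of 7 each. Only 1 of 3 genes of gluconeogenesis and fructose bisphosphate control had control 1 above control 2. Control 2 was lowest for 0 of 7 pentose phosphate genes and 5 of 7 of sugar uptake and stores. Differences between the lists were not tested.

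Pgi, the isomerase between hexokinase and phosphofructokinase, had 6.0 and 4.05 signal in the controls, against 5.82 and 3.51 after knockdown, a log2 change of -0.10. In the stores list 5 of 7 were higher, with a median of 0.09 (45.3% of all tested genes were higher). They included the glycogen phosphorylase gene GlyP (4.77 and 5.68 mean signal, log2 change 0.21), the trehalase gene Treh (0.17) and the glycogen synthase gene GlyS (0.14). In the branches list 7 of 12 were higher, with a median of 0.10. The malic enzyme gene Men had a log2 change of 0.19, the pyruvate dehydrogenase gene CG11876 (now Pdhb) -0.37, from 3.22 to 2.19 mean signal, and the glycerol phosphate dehydrogenase gene Gpdh -0.27, with 34.2% of its exonic length shared with other genes. The 3 tested genes of gluconeogenesis and fructose bisphosphate control were all low. They were the pyruvate carboxylase gene CG1516 (now PCB; 1.07 and 1.78, log2 change 0.46), Pfrx, which makes and breaks down fructose 2,6-bisphosphate (0.04), and the phosphoenolpyruvate carboxykinase gene Pepck (0.034), whose exonic length is 100% shared.

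In the pentose phosphate list 1 of 7 was higher and 6 lower, with a median of -0.10 (45.3% of all tested genes were higher). The one higher was Pgd, which oxidises phosphogluconate (11.3 and 14.9 mean signal, log2 change 0.35). The ribose phosphate isomerase gene Rpi stood at 3.98 and 2.44 (-0.54) and CG17333 (now Pgls), the lactonase gene, at a log2 change of -0.50. Exons shared with other genes make up 100% of the exonic length of Rpi and 72.9% of that of Pgd. In the citric acid cycle 9 of 18 were higher, with a median of -0.011. The mitochondrial malate dehydrogenase gene Mdh2 had 10.5 and 8.43 signal in the controls, against 3.35 and 6.75 after knockdown, a log2 change of -0.85 (limma, unadjusted p = 0.0163), and the cytosolic Mdh1 stood at -0.34. The isocitrate dehydrogenase subunit gene l(1)G0156 (now Idh3a) stood at 0.35. Among 7 genes of transcription regulators of glycolysis 2 were higher, with a median of -0.10: sima, the fly HIF alpha gene, stood at -0.18, ERR, the estrogen-related receptor gene, at -0.25, bigmax at -0.16 and dm, the fly Myc gene, at 0.07 with 14.4 and 15.1 mean signal. Of their exonic length, 100% was shared with other genes for dm, 47.4% for ERR, 37.5% for bigmax and 8.60% for sima.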

How the data were processed

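The deposited RNA-seq files list 78680 exons with a signal that the authors computed; reads were aligned with BWA to dm3 and peaks called with MACS 1.4, per the submitters' processing notes. Counter, annotation, strand and peak threshold are not given in the sources used here. With a tolerance of 0.05 read, 100% of the values checked held whole reads per 40-bp bin, and absolute depth is unknown. Overlapping exons of a gene were joined, the longest stood for its group, and the gene value was the mean weighted by bins. Groups follow the labels. Genes whose signal averaged at least 1 over the libraries were tested with limma 3.58.1 in R 4.3.3 (eBayes with a trend, two-sided) on log2(signal + 1), so changes of low genes are understated; the code was tested on simulated data. Adjusted p under 0.05 was the threshold. A shared base counted as peak overlap; positions are dm3, exon starts as in the files. Named are the 10 enzyme genes, dTet, in each further list the 3 smallest p and the highest signal, and the 3 genes most alike in pattern. The enzyme genes, lists and rules were chosen with earlier results of these data known. Genes of the lists were matched by symbol, 7 of those and of the markers through synonyms in RefSeq names. The hMeRIP samples of unedited cells and the input samples were not analysed here.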

Additional observations from a re-analysis of the deposited data

How the results depend on the processing

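Over 138 values of single genes under the alternatives (other pseudocounts, filters, scalings, exon choices, a replicate block and each library left out), 130 kept their direction, 8 turned and 0 passed the threshold (smallest adjusted p = 0.706, limma). All that turned did so with a library left out, over the ranges -0.10 to 0.11 for Hex-A, -0.24 to 0.0091 for Pfk, -0.19 to 0.24 for Gapdh1, -0.048 to 0.11 for Gapdh2, -0.31 to 0.64 for Pgk and -0.019 to 0.25 for Eno. The library left out was control 1 for Pfk, control 2 for Hex-A, Gapdh1, Pgk and Eno, knockdown 1 for Hex-A, and knockdown 2 for Gapdh1 and Gapdh2. Leaving out a library gave a median log2 change of -0.03 to 0.17, 6 to 8 of 10 enzyme genes with groups that do not overlap, where 62.8% to 70.9% of all tested genes did not (4 of 10 and 30.6% with all libraries), and 0 to 3 genes called over all genes, the 3 without knockdown 1. With the longest exon alone, an alternative chosen after seeing the data, the median control level was 10.3 in place of 8.01 and Pfk had -0.78 in place of -0.12; the cause was not tested. Keeping peaks of at least the median width left 0 enzyme genes with a yellow-list peak. With the replicate block the enzyme genes' median was 0.07 and 0 were called. The deviations of control 1 and knockdown 1 from their group means correlated at 0.014 over 6050 genes. With 2 libraries a group this cannot show whether replicates of the same number shared a culture or batch, which the labels do not give. The 3 prime exon alone was not run, since the files hold no strand.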

Other observations

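The further isozyme genes of the pathway had little or no signal. Of 13 genes listed as further isozymes or Pgi, only Pgi reached a mean signal of 1. Hex-t1, CG5432 (an aldolase relative), Pglym87, CG7059 and CG2964 were listed at 0 in every library, and Hex-C had 0.268 and 0 in the controls, against 0.411 and 0 after knockdown.

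CG7069, a pyruvate kinase relative that lies beside PyK on 3R, carried a peak in both hMeRIP lists although its signal was low. The yellow-list peak ran from 18200521 to 18201224 and the dTet-list peak from 18200381 to 18201294, 2.05 and 1.91 kb from PyK. CG7069 had 0.450 and 0.505 signal in the controls, against 0.536 and 0.673 after knockdown, and PyK itself had no peak. In the neighbourhood of the enzyme genes, both lists also had a peak in Bacc, 2.84 and 2.80 kb from Pgk, and in Rpn2, 6.26 and 6.27 kb from Pglym78. Among the genes around the pathway, kdn and dm had a peak in both hMeRIP lists and crp in the dTet list alone; 100% of the exonic length of dm is shared with other genes. Genes with peaks in this paragraph were named after their values were seen.

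The genes whose pattern over the 4 libraries lay nearest to the median pattern of the enzyme genes were Hel25E, Acn and Rab30. The sums of squared differences in centred log2 values were 0.00056, 0.0017 and 0.0020, the smallest of 3273 candidate genes. With 4 libraries such likeness is a description only.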
